A study of Mus musculus with 41 samples.

Results

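Genes of immature neurons, 10 in all, were followed in the brains of 4-day-old male mice exposed to metformin before birth. The genes were *Dcx*, *Tubb3*, *Stmn2*, *Map2*, *Mapt*, *Gap43*, *Neurod1*, *Neurod6*, *Sox11* and *Nefl*, and every array probe annotated with one of these symbols was taken, which gave 29 of the 45281 probes and 10 of the 19057 genes with a probe of 1 symbol. The brains were 3 control and 3 metformin whole brains of male offspring of C57/BL6NHsd dams on a regular diet (RD), and each came from 1 animal. Livers of the same 6 males, 3 control and 3 metformin livers of RD females, 6 control and 6 metformin livers of male offspring of dams on a high fat diet (HFD), and 6 control and 5 metformin samples of subcutaneous fat from those HFD males served as the reference for innervation and background. All were collected at postnatal day 4. Dams of the metformin groups were given oral metformin during gestation, and the labels call the other groups control. The study's methods describe dosing of HFD dams through most of gestation and do not set out the RD dams separately, and the RD and HFD animals belong to different studies, so diet and study cannot be told apart. Animals are named by their code, which is 1B, 3B and 5C for the control brains and 1E, 3E and 6F for the metformin brains.

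After its last division a young neuron migrates, extends an axon and dendrites and only later forms mature synapses. During that phase it depends on proteins that bind and remodel microtubules, on growth cone proteins at the tip of the axon, and on transcription factors that start and hold the neuronal programme. In the mouse, much of this growth in the forebrain and cerebellum still goes on in the first week after birth.

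Levels are log2 bead intensities after background correction and quantile normalization of all 41 arrays, and on this scale a probe without signal lies between about 4 and 5. A probe was called detected on an array where its detection p was under 0.05. Levels of different probes are not comparable with each other. The arrays detected 43.6% to 46.1% of all probes in brain, 30.97% to 41.6% in liver and 29.9% to 43.4% in fat, and the 6 brain arrays correlated at 0.977 to 0.995 over the probes tested. The number of arrays limits the precision, and the p-values measure the spread between these animals as if each were independent. Brains 1B and 3B share a letter in their codes, as do 1E and 3E, and the other groups hold shared codes too. What the letters mark, such as a litter, is not given, and over all tested probes brains of 1 letter had a correlation of 0.523 within their group, so intervals and p-values may be too small.

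Of the 10 genes 8 had at least 1 probe detected on all 6 brains. Together these genes had 16 probes that entered the tests. Detection in whole brain does not show that the signal came from immature neurons. *Nefl*, which encodes the light neurofilament subunit of maturing axons, lay at 4.28 to 4.44 in the 6 brains, and its only probe was detected on none of the 41 arrays. *Neurod6*, a basic helix-loop-helix factor of cortical projection neurons, lay at 4.39 to 4.53 in brain and was likewise detected nowhere. The array therefore gave no measurement of these genes in any tissue. The remaining untested probes of *Dcx*, *Map2*, *Mapt*, *Sox11* and *Stmn2* were detected on none of the brains, apart from 1 *Stmn2* probe detected on 4 of 6 and 1 *Sox11* probe detected on 1.

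The promoters shown are those of the tested genes with a single RefSeq start (GRCm38.p6) at the end of the annotated gene. They include both transcription factors that were tested. Of the 10 genes 6 had an entry in that table, and *Stmn2*, *Gap43*, *Mapt* and *Nefl* had none. Each sequence is the 250 bases before the transcription start, read 5′ to 3′ on the strand of the gene, and capitals mark the E-box letters CANNTG, which basic helix-loop-helix factors such as Neurod1 recognise.
Neurod1, chr2:79456637-79456886, minus strand: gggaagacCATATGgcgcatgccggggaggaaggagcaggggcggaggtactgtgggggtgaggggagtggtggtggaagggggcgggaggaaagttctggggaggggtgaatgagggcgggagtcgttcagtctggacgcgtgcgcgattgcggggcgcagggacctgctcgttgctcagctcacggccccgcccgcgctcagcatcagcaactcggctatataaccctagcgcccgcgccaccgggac
Sox11, chr12:27342719-27342968, minus strand: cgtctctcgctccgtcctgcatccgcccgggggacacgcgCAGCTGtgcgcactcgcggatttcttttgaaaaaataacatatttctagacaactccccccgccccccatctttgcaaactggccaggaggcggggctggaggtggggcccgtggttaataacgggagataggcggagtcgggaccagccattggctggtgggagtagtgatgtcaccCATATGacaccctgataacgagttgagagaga
Tubb3, chr8:123411303-123411552, plus strand: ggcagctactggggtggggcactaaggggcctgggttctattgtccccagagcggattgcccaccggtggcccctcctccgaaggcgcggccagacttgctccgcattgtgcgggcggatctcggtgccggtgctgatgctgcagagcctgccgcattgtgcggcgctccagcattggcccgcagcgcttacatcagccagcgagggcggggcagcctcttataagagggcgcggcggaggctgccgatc
The E-box letters, which read the same on both strands, occurred 1 time before *Neurod1*, 2 times before *Sox11* and 0 times before *Tubb3*. Of all 32851 promoter windows of this length 66.2% held them. The GC box letters GGGCGG, searched on both strands, occurred 4 times before *Neurod1*, 2 times before *Sox11* and 2 times before *Tubb3*, against at least 1 match in 32.7% of all windows. In the printed windows no match of one motif overlapped a match of the other. These matches are letters and not measured binding.

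The question put to the brains was whether prenatal metformin left a trace in these genes. With 3 arrays against 3 no such difference passed the test. limma called 0 of the 16 probes (every Benjamini-Hochberg adjusted p 1.00), while 1 of 19182 probes, or 0.00521%, was called over the whole array. That probe belongs to *Cptp*, a lipid transfer gene outside the list, which was named after its value was seen (log2 difference -1.96, adjusted p 0.00139). Among the 16 probes 9 were lower and 7 higher with metformin. Their median log2 difference was -0.05, beside -0.0046 over all probes, of which 51.4% were lower. At an unadjusted p under 0.05 there was 1 member probe, which was lower, against 1.22% of all probes lower at that limit. These are whole-tissue samples, so fewer cells of a type and less RNA per cell cannot be told apart.

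**Figure D1:**
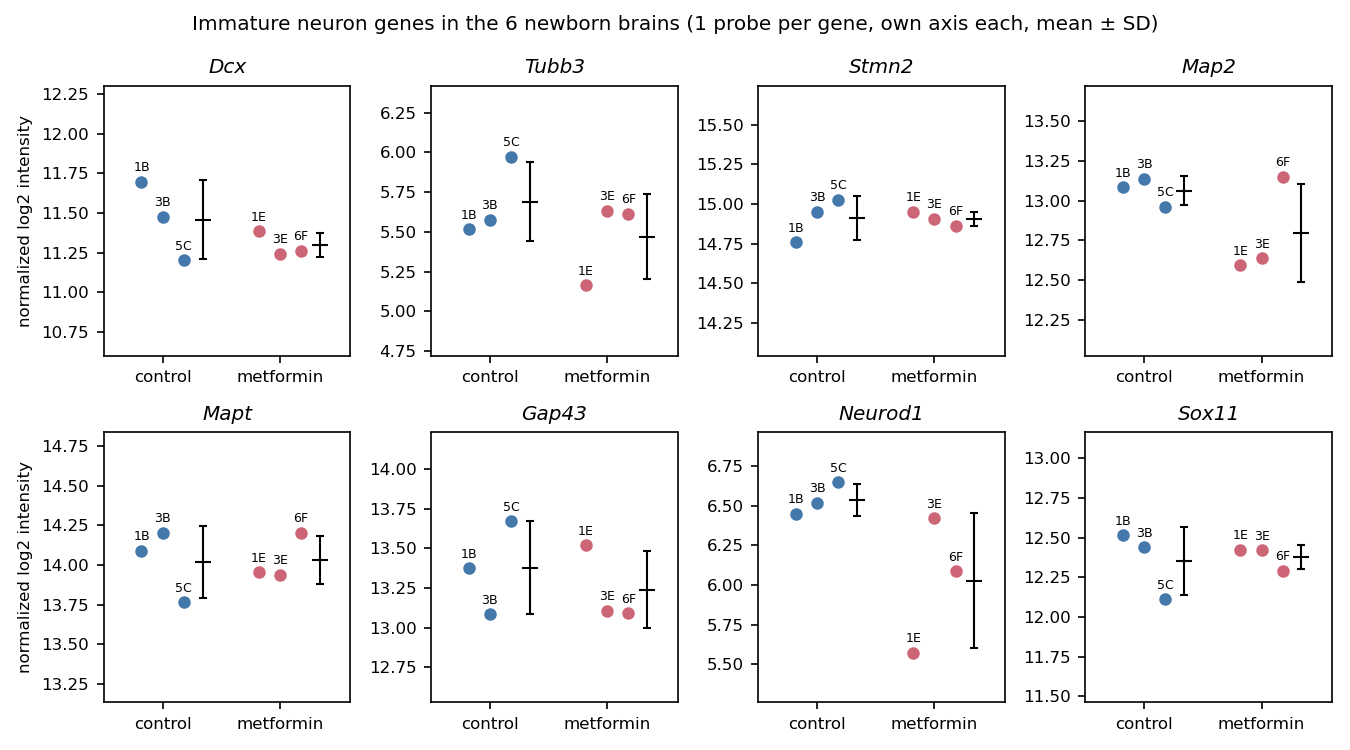
Levels of 8 immature neuron genes in each brain (normalized log2 intensity, brightest probe of each gene, own vertical axis of equal length in every panel), with control brains in blue, metformin brains in red, animal codes beside the points, and the mean ± SD in black (n = 3 per group). The groups overlap in 7 of the 8 panels, and only for *Neurod1* do all 3 metformin brains (5.57, 6.42 and 6.09) lie below all 3 controls (6.45, 6.52 and 6.65).

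The microtubule genes of migrating and growing neurons were measured by 12 of these probes. *Dcx*, which encodes doublecortin, a microtubule stabilizer of migrating neurons, was 11.70, 11.48 and 11.20 in control brains 1B, 3B and 5C and 11.39, 11.24 and 11.26 in metformin brains 1E, 3E and 6F. The groups overlapped, since 5C was the lowest of all 6 (log2 difference -0.16, 95% interval -0.50 to 0.18). Its other tested probe was 11.29, 11.26 and 11.12 in controls and 10.997, 11.02 and 11.11 with metformin, so every metformin brain lay below every control. That difference was -0.18 (-0.43 to 0.08, unadjusted limma p 0.146, adjusted p 1.00).

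*Stmn2*, whose product stathmin-2 binds tubulin in growing axons, was 14.76, 14.95 and 15.03 in controls and 14.95, 14.91 and 14.86 with metformin. The metformin brains lay inside the range of the controls, and the difference of -0.01 had the interval -0.28 to 0.27. *Tubb3*, the neuronal class of beta-tubulin, was measured by 1 dim probe, at 5.52, 5.58 and 5.97 in controls and 5.16, 5.63 and 5.61 with metformin. Its groups overlapped (-0.22, -0.63 to 0.19), with 1E lowest and 5C highest.

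*Mapt* encodes tau, the microtubule-associated protein of axons. Its brightest probe was 14.09, 14.20 and 13.76 in controls and 13.96, 13.94 and 14.20 with metformin, and the groups overlapped (0.01, -0.33 to 0.36). The other tested *Mapt* probes differed by -0.10 (-0.37 to 0.17) and 0.17 (-0.31 to 0.66).

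**Figure D2:**
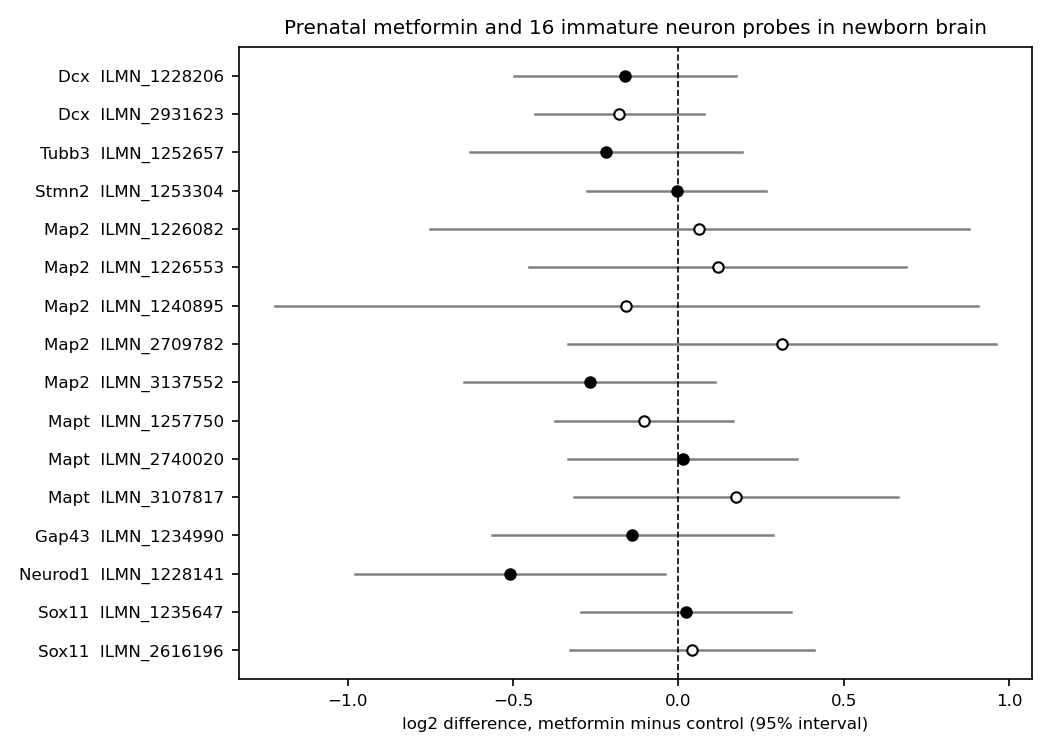
Log2 difference between metformin and control brains (horizontal axis, points) with its 95% interval (lines) for the 16 tested probes, where filled points mark the brightest probe of each gene and the dashed line marks no difference. The interval of *Neurod1* (-0.98 to -0.04) is the only one of the 16 that leaves out zero.

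*Map2* encodes the microtubule-associated protein of dendrites and had 5 tested probes. The brightest, ILMN_3137552, was 13.09, 13.14 and 12.96 in controls and 12.59, 12.64 and 13.15 with metformin, so that 1E and 3E were below all controls and 6F above them (-0.27, -0.65 to 0.11). The other probes varied more from brain to brain, and not together. ILMN_1226082, designed on a cDNA clone, was 9.15, 9.40 and 8.46 in controls and 8.78, 8.57 and 9.85 with metformin. ILMN_2709782, designed on a RefSeq transcript, was 6.48, 6.76 and 7.60 in controls and 7.44, 7.42 and 6.92 with metformin.

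Where the clone probe was high (1B, 3B and 6F), the RefSeq probe was low, and the other way round. The second clone probe, ILMN_1240895, was highest in 6F (8.37) and 3B (7.92) and lowest in 1E and 3E (6.62 and 6.65), and the second RefSeq probe, ILMN_1226553, ran from 6.06 in 1B to 7.06 in 5C. The same division of the brains was the largest component of variance over all tested probes, with 54.97% of the total and scores of 28.6, 16.1 and 20.0 for 1B, 3B and 6F against -26.2, -18.6 and -19.8 for 5C, 1E and 3E. Each side of it holds brains of both groups and keeps every code letter whole, with B and F on one side and C and E on the other. What it reflects was not tested. Metformin differences of these 4 *Map2* probes were -0.16 to 0.31, with intervals as wide as -1.22 to 0.91.

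**Figure D3:**
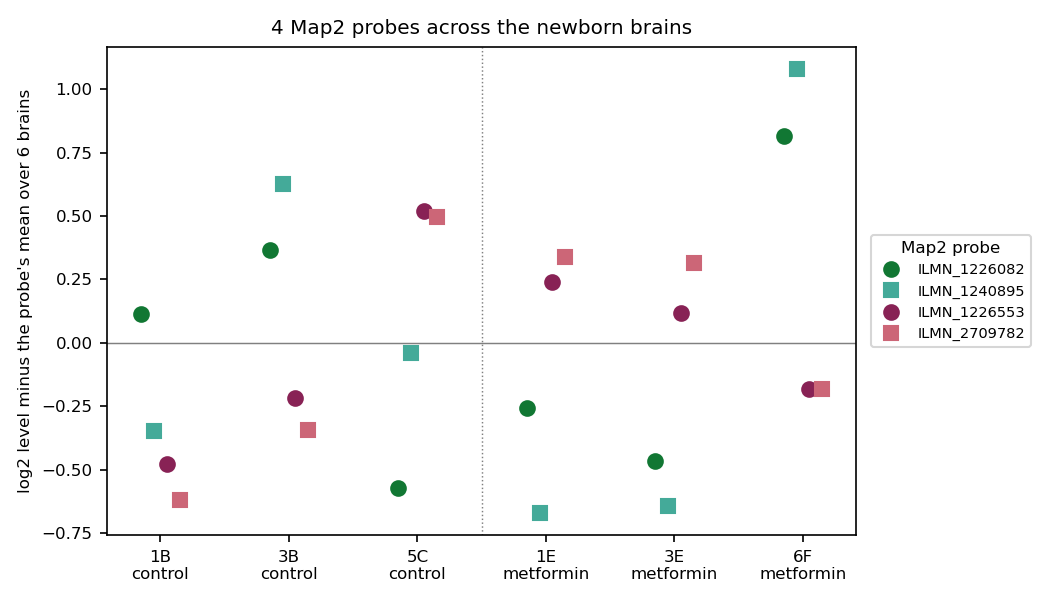
Level of 4 *Map2* probes in each brain as the log2 distance from the probe's own mean over the 6 brains (vertical axis), with green points for probes designed on cDNA clones and red points for probes designed on RefSeq transcripts, and the dotted line between control and metformin brains. In 6F the clone probes are at their highest (9.85 and 8.37) while in 5C the RefSeq probes are at theirs (7.06 and 7.60).

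*Gap43*, the growth-associated protein of axonal growth cones, was 13.37, 13.09 and 13.67 in control brains and 13.52, 13.11 and 13.09 in metformin brains. All metformin values lay within the control range, from 3B to 5C (-0.14, -0.56 to 0.28). Of the transcription factors, *Sox11*, an SRY-box factor of newly formed neurons, was 12.51, 12.44 and 12.11 in controls and 12.42, 12.42 and 12.29 with metformin. Here too the metformin brains lay inside the range of the controls (0.02, -0.29 to 0.34), and the second *Sox11* probe gave 0.04 (-0.33 to 0.41).

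*Neurod1*, a basic helix-loop-helix factor that drives neuronal differentiation and marks immature granule neurons, was the only gene with an unadjusted p under 0.05. It measured 6.45, 6.52 and 6.65 in controls and 5.57, 6.42 and 6.09 with metformin. Every metformin brain lay below every control, by a wide step in 1E and by less than the spread among controls in 3E. The log2 difference was -0.51 (-0.98 to -0.04, unadjusted limma p 0.0369, adjusted p 1.00), and it was -0.28 without 1E and -0.13 with the authors' log2 values. With the code letter as a random block the unadjusted p was 0.125. Over the whole array 3.68% of probes had all metformin brains below all controls and 2.59% had all above, and of the 16 member probes those below were *Neurod1* and 1 *Dcx* probe, with 0 above.

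Other genes of the same phase also gave no call. Of 24 tested cytoskeletal genes of young neurons 0 were called, with 11 higher, 13 lower and a median log2 difference of -0.02. *Dpysl3*, a growth cone protein that binds tubulin, had the smallest p of them (0.35, 0.03 to 0.66) and the kinesin gene *Kif21b* followed at -0.30 (-0.69 to 0.08). Of 16 neuronal transcription and RNA-binding genes 0 were called (median 0.01), and *Myt1* and *Elavl4*, which take part in neuronal differentiation, differed by -0.30 (-0.75 to 0.15) and -0.19 (-0.56 to 0.19). Of 11 guidance and adhesion genes 0 were called (median 0.00), where the axon guidance receptors *Dcc* and *Robo2* differed by 0.31 (-0.04 to 0.66) and -0.21 (-0.59 to 0.17).

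The stages on either side were also without a call. Among 9 progenitor genes the median was 0.03, with *Hes5*, a Notch target, at 0.14 (-0.10 to 0.39) and the stem cell factor *Sox2* at 0.19 (-0.20 to 0.57). Among 16 genes of mature neurons 13 were lower and 3 higher, with a median of -0.12. *Slc17a7*, a vesicular glutamate transporter, differed by -0.49 (-0.89 to -0.09, unadjusted limma p 0.0225, adjusted p 1.00) and the synaptic vesicle gene *Syn2* by 0.39 (-0.01 to 0.78). Lower genes also prevailed among markers of astrocytes (6 of 7), oligodendrocytes (6 of 8) and microglia (7 of 8). Genes of peripheral neurons went the other way, with 7 of 8 higher. Blood in the tissue was followed through 3 erythroid genes, 0 of them called, with 2 lower and 1 higher (0.11). *Hba-a1*, an alpha-globin gene, differed by -0.52 (-0.94 to -0.10, adjusted p 1.00).

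The brain was next set against the livers of the same males, in control animals. All 16 tested probes were higher in brain by limma, where 38.5% of all 21843 probes were. Of the 16, 8 had entered the test through the brains only, which fixed their direction in part, and the other 8, of *Dcx*, *Stmn2*, *Map2*, *Mapt*, *Gap43* and *Sox11*, were detected on every RD male liver as well. *Stmn2* was 270-fold higher in brain (log2 difference 8.08, 6.72 to 9.44, adjusted p 5.2e-08) and *Mapt* 327-fold (8.35, 7.07 to 9.63, adjusted p 1.97e-08). *Gap43* was 169-fold higher, *Dcx* 77.7-fold, *Map2* 65.1-fold and *Sox11* 63.4-fold. *Tubb3* was 1.93-fold higher (adjusted p 0.000651), with 1 of 3 livers detected. *Neurod1*, detected in 0 of 3 livers, was at least 3.08-fold higher. A bound of this kind sets the bright mean against the lowest signal among detected probes of each dim array.

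Signal of these neuronal genes in liver differed between the groups of livers. *Stmn2* was detected on all 6 livers of RD males, at 7.31, 6.58 and 6.61 in controls 1B, 3B and 5C and at 6.80, 8.97 and 5.26 in metformin livers 1E, 3E and 6F. In RD females it was detected in 0 of 3 controls (4.43 to 4.72), and with metformin it was 7.54 in 4E, 5.20 in 4F and not detected in 1F (4.74). In the HFD males it was detected in 0 of 6 control livers (4.33 to 5.07) and 0 of 6 metformin livers (4.32 to 5.01). Every RD male liver was thus above every HFD liver and every RD female control.

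*Gap43* and *Mapt* were likewise highest in 3E, and *Gap43* in every RD male liver was above every HFD liver. *Gap43* was 6.39, 5.72 and 5.82 in RD male controls and 5.69, 7.84 and 5.15 with metformin, all detected, and 4.38 to 4.67 in RD female controls, detected in 0 of 3. *Mapt* was 6.30, 5.70 and 5.00 in RD male controls and 5.53, 8.15 and 5.07 with metformin, and 4.48 to 4.62 in RD female controls. In the female metformin liver 4E they reached 6.51 and 6.74. In the 12 HFD livers *Gap43* was detected in 0 (4.31 to 4.58) and *Mapt* in 1, the metformin liver 10K-2, at 5.22.

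**Figure D4:**
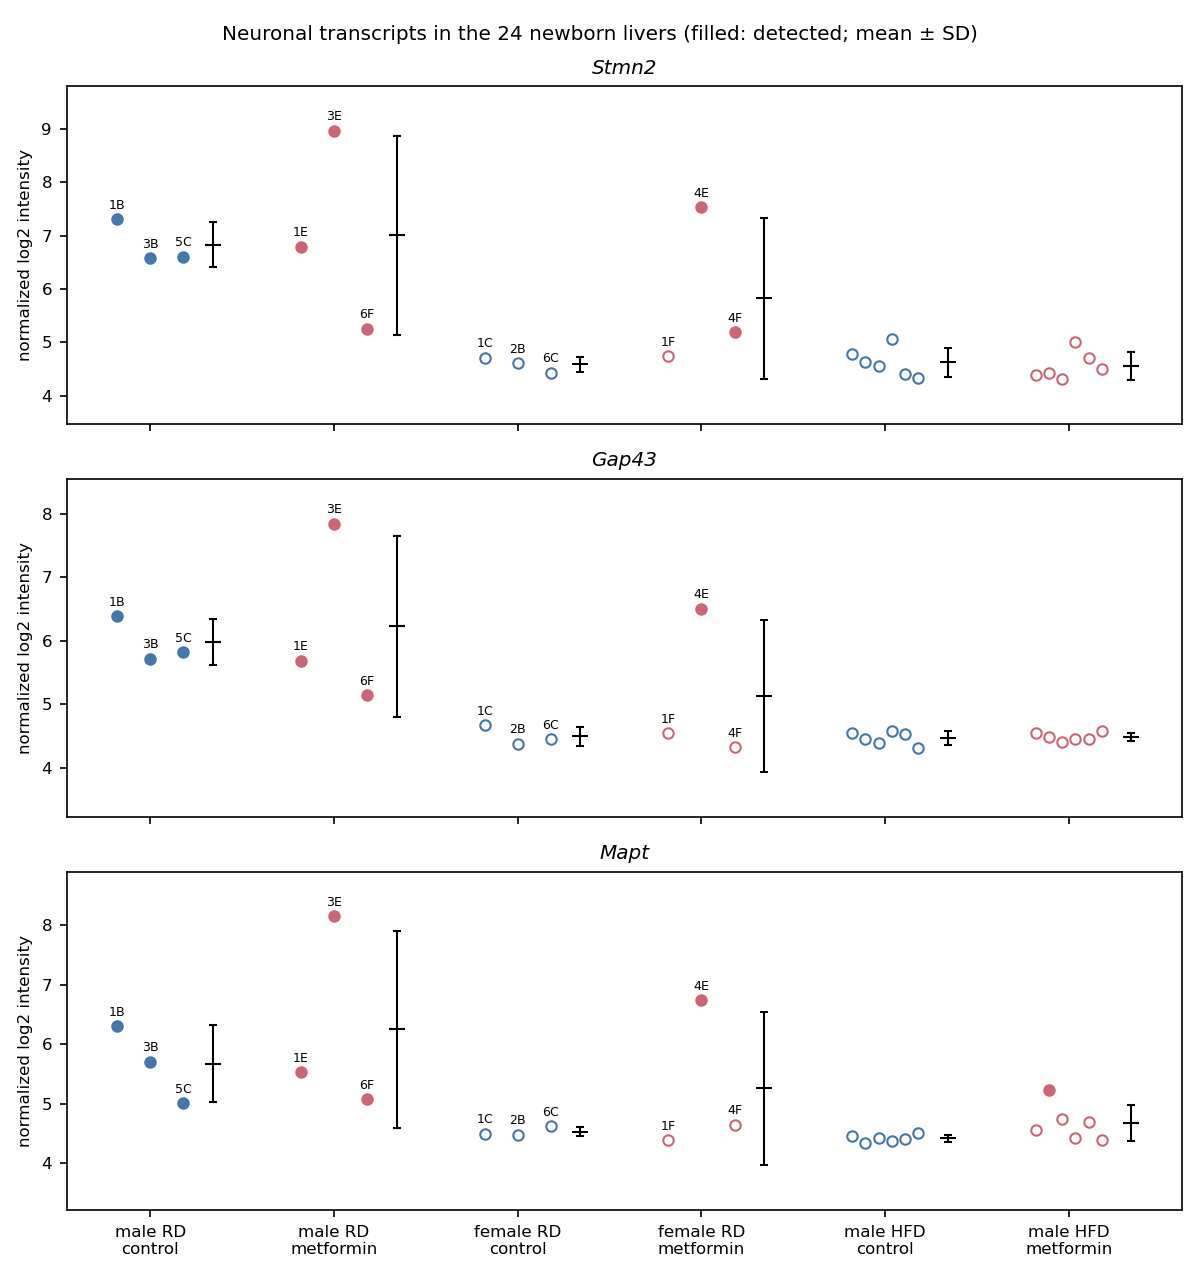
Levels of *Stmn2*, *Gap43* and *Mapt* (normalized log2 intensity) in each of the 24 livers by sex, maternal diet and treatment, with controls in blue, metformin in red, filled points for detected and open points for not detected, and the mean ± SD in black (n = 3 per RD group, n = 6 per HFD group). Livers 3E (8.97, 7.84 and 8.15) and 4E (7.54, 6.51 and 6.74) stand highest, the male RD livers are all detected, and the female RD controls and nearly all HFD livers are not.

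As a share of the brain of the same animal, the liver signal of *Stmn2* was 0.244% to 0.516% in the 3 controls and 0.300%, 1.58% and 0.0748% in 1E, 3E and 6F. For *Gap43* the share was 0.311% to 0.640% in controls and 2.43% in 3E, and for *Mapt* 0.116% to 0.360% in controls and 1.71% in 3E. Liver 3E thus had the highest share for all 3 genes, and for *Map2* (4.71%), *Dcx* (2.52%) and *Sox11* (2.72%) as well. *Neurod1* was detected in 0 of the 24 livers. Shares are of normalized intensities on the linear scale, after the offset added in normalization was subtracted from both tissues.

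Lists of other neural genes were read in the same livers. Over 18 genes of mature neurons the mean level was 6.13 in 3E and 5.63 in 4E, and 5.06 to 5.48 in the other 10 RD livers, with 12 of the 18 genes detected in each of 3E and 4E. Over 24 cytoskeletal genes of young neurons it was 6.65 in 3E, 6.26 in 4E and 5.80 to 6.18 in the others. The progenitor list showed no such rise, at 6.15 and 6.18 in these livers and 5.90 to 6.17 in the others. Nor did 10 genes of peripheral nerves, of which 0 to 2 were detected in any RD liver. These lists were also dimmer in control brains, at 7.79 to 7.99 and 7.25 to 7.40. There the mature neuron list was at 10.29 to 10.55 and the cytoskeletal list at 10.70 to 10.77. A small share of so dim a signal could hardly be seen, so nothing is read from the contrast between lists. Whether carried-over brain RNA or another source gave the neuronal signal was not tested.

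The difference between male and female RD control livers was examined after these values had been seen, and *Stmn2*, *Gap43* and *Mapt* had entered the liver tests through RD males only, so their direction is a description. limma called 0 of the 8 member probes tested in liver, where 0.0228% of all probes were called higher in males. At an unadjusted p under 0.05 the count was 2, both higher in males, against 0.638% of all probes. *Stmn2* was at least 3.64-fold higher in males (p 0.0015, adjusted p 1.00) and *Gap43* at least 2.01-fold (p 0.00528, adjusted p 1.00). *Mapt* was at least 1.62-fold higher (p 0.0542).

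Because of this signal, and so after these values had been seen, the brain was also compared with other control livers. Against RD female livers *Stmn2* was at least 984-fold higher in brain, *Mapt* at least 530-fold and *Gap43* at least 340-fold. Against HFD male livers the bounds were 878-fold, 473-fold and 303-fold. These exceed the values against the livers of the same males. *Sox11* was 66.8-fold higher against either reference. *Dcx* was 86.2-fold higher against RD female and 88.2-fold against HFD male livers, and *Map2* 83.7-fold and 48.8-fold. All 16 probes remained called with each of these references.

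Metformin did not bring a call for the list in any liver group. limma called 0 of 8 member probes in HFD males, where 0.758% of all probes were called, 0 in RD males (0.0228%) and 0 in RD females (0%). Only the *Map2* probe and the *Sox11* probe ILMN_1235647 had entered these tests through HFD livers. *Stmn2* and *Gap43* were detected in none of the HFD livers, so for them the HFD test compared background values and shows no lack of effect. At an unadjusted p under 0.05 the counts were 0, 1 and 0, and the 1 was a *Dcx* probe, higher by 0.60 in RD males (0.12 to 1.08, p 0.0158, adjusted p 0.86), where 1.26% of all probes were higher. Its levels there were 5.28, 5.24 and 5.02 in controls and 5.61, 6.26 and 5.47 with metformin, so the groups did not overlap, and the highest was 3E, the liver with the most neuronal signal. Without 3E the difference was 0.36 (p 0.14). The second *Dcx* probe differed by 0.22 (-0.36 to 0.81) in RD males. For *Stmn2* the difference was 0.17 (-1.11 to 1.46) in RD males and -0.81 without 3E.

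The metformin difference in brain minus that in liver, in the same 6 males, was called for 0 of 16 probes by limma, as for 0% of all. At an unadjusted p under 0.05 there were 2, both lower in brain, against 1.84% of all probes. *Dcx* differed by -0.77 (-1.35 to -0.18, p 0.0144, adjusted p 1.00), from -0.16 in brain and 0.60 in liver, and by -0.50 without 3E. The second *Dcx* probe gave -0.40 (-1.01 to 0.20). *Neurod1* differed by -0.55 (-1.08 to -0.03, p 0.04, adjusted p 1.00), and by -0.32 without 1E.

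Subcutaneous fat holds axons but no nerve cell bodies, and 7 probes of 6 member genes were tested there. Between control fat and control liver of the HFD males 6 of the 7 were called by limma, 5 of them higher in fat, where 35.9% of all probes were higher. Of the 7, 5 had entered through fat samples only (*Dcx*, *Stmn2*, *Mapt*, *Gap43* and 1 *Sox11* probe), which favoured that direction, so the count is a description. It was 5 with the authors' values and 4 with arrays centred on medians, and *Mapt* was not called without 1R-1 or 1T-2. *Gap43* was at least 3.01-fold higher in fat (adjusted p 3.76e-07), with 5 of 6 fat samples and 0 of 6 livers detected. *Sox11* was 2.33-fold higher (adjusted p 1.15e-06) and *Stmn2* at least 1.29-fold (adjusted p 0.000332). *Map2* was lower in fat (log2 difference -1.54, -2.04 to -1.05, adjusted p 6.47e-06), with 4 of 6 fat samples detected.

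Markers of Schwann cells, the glia of peripheral nerves, were at 6.94 to 8.33 over 7 genes in control fat and 5.41 to 5.77 in control HFD livers. The 10 genes of peripheral neurons did not separate these tissues, at 4.59 to 4.72 in control fat and 4.48 to 4.67 in control HFD livers. The levels of *Gap43* in fat were 6.78, 6.64, 5.00, 7.002, 7.56 and 7.38 in controls 1R-1, 1R-4, 1T-1, 1T-2, 1T-3 and 1T-4. All but 1T-1 were detected.

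With metformin 0 of the 7 probes were called in fat, as 0% of all, by the model of the fat arrays alone. The study normalized its arrays otherwise and analysed them together with an earlier dataset. It reported many called genes in these fat samples. At an unadjusted p under 0.05 there were 2 member probes here, both higher, against 9.63% of all probes. All but the *Sox11* probes had entered the test through the metformin samples only, which favours higher values there, so nothing is read from that count. *Dcx* had 1 probe tested in fat, ILMN_2931623, the second given for brain. It ranged from 4.36 to 5.12 in the 6 controls (median 4.71), 1 of them detected. In the 5 metformin samples it was 4.93 to 5.32, all detected, and control 1T-3 lay inside that range. The difference was 0.43 (0.11 to 0.76, limma p 0.0128, adjusted p 0.22). The first brain probe, ILMN_1228206, was not tested in fat and leaned the other way. Its mean was 4.85 in controls, 3 of 6 detected, and 4.74 with metformin, 1 of 5 detected. *Map2* was 6.48, 5.17, 4.96, 6.49, 6.24 and 6.11 in controls and 6.75, 6.92, 6.45, 6.81 and 6.52 with metformin, with the dim controls 1R-4 and 1T-1 lowest (0.78, 0.16 to 1.39, p 0.017, adjusted p 0.232).

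Markers of muscle and endothelium also leaned between the fat groups, with 0 of them called in the model used here. The study's own analysis of these samples did call such genes at the same false discovery rate. Its list holds muscle genes such as *Mylpf* and *Tnni2* as higher and endothelial genes such as *Cdh5* and *Pecam1* as lower with metformin. The mean of 10 skeletal muscle genes was 10.07 to 11.18 in the metformin samples. In controls 1R-1, 1R-4, 1T-1, 1T-2, 1T-3 and 1T-4 it was 10.99, 5.74, 7.97, 10.76, 7.27 and 10.77. All 10 genes were higher with metformin, by a median of 1.93, but only 1 of them at an unadjusted p under 0.05. The order was not that of *Dcx* throughout, since 1T-3 was low for muscle and had the highest *Dcx* of the controls. The mean of 8 endothelial genes was 8.45 to 9.15 in controls and 8.21 to 8.59 with metformin. All 7 tested were lower, where 44.2% of all probes were. Of the 7, 4 had an unadjusted limma p under 0.05, as had 2591 of all 15848 probes in either direction. Without 1R-4 and 1T-1 *Map2* differed by 0.35 and *Dcx* by 0.33. The part of muscle and endothelium in the differences of *Dcx* and *Map2* was not tested.

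**Figure D5:**
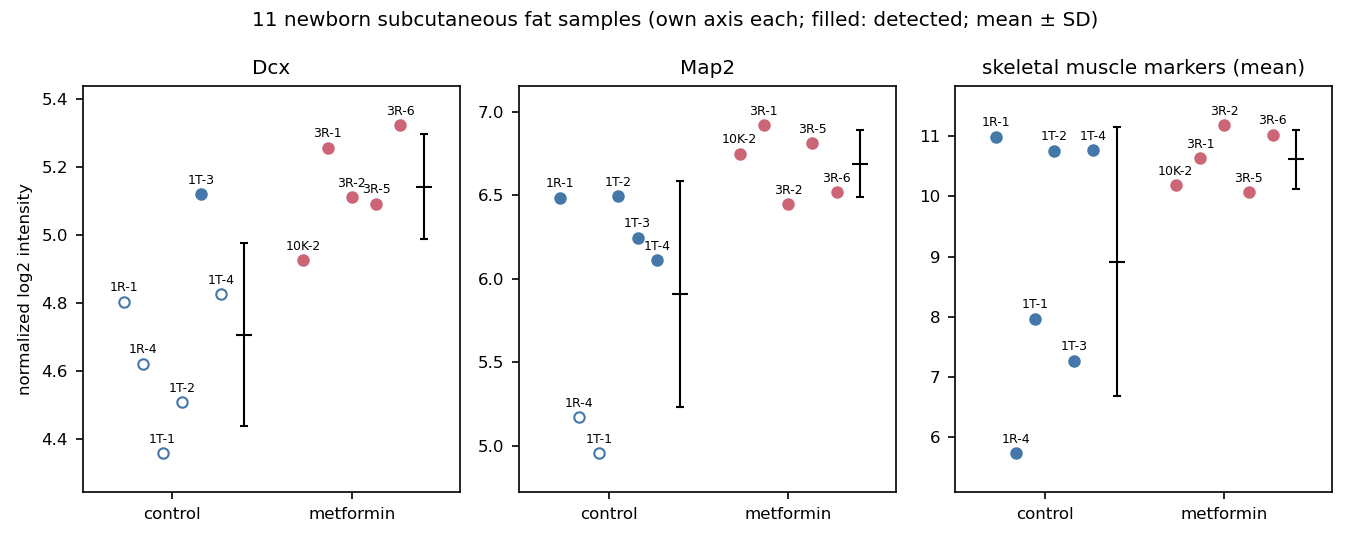
Levels of *Dcx*, *Map2* and the mean of 10 skeletal muscle genes (normalized log2 intensity, own axis in each panel) in 6 control (blue) and 5 metformin (red) samples of subcutaneous fat, with animal codes, filled points for detected, open points for not detected, and the mean ± SD in black. Controls 1R-4 and 1T-1 are the lowest for *Map2* (5.17 and 4.96), and 1R-4, 1T-3 and 1T-1 are the lowest for the muscle genes (5.74, 7.27 and 7.97). The *Dcx* panel shows ILMN_2931623, its only probe tested in fat.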

How the data were processed

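RNA of whole brain, liver and subcutaneous fat was hybridised to Mouse WG-6 v2 bead arrays of Illumina. The authors deposited non-normalized bead intensities and, beside each, a detection p-value. They also deposited log2 values made with the lumi package by variance stabilization and robust spline normalization, used here as an alternative. By the study's methods 1 fat array of the metformin group was discarded for low signal and was not analysed here. The member genes and the gene lists were chosen with earlier results of these data known.

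Intensities of all 41 arrays were background-corrected, quantile-normalized and log2-transformed by the neqc function (limma 3.58.1, R 4.3.3), with offset 16 and the background inferred from the detection p-values. Tests covered probes detected (p under 0.05) on all arrays of 1 or more of the model's groups. Linear models used lmFit with eBayes, the Benjamini-Hochberg adjustment ran over all tested probes, and the threshold was 0.05. The brain model held 6 arrays, the fat model 11, the liver model 24, and the models across tissues the arrays of both. Of 45281 probes 34885 had 1 symbol, 18 several and 10378 none. All members were named with all probes. Of each other list the 2 genes with the smallest p in brain were eligible, and a gene's value is that of its brightest tested probe. Brain and RD male liver, and HFD liver and fat, came from the same animals by their codes, so the animal was entered as a random block in an alternative fit, with an estimated correlation of 0.11 for brain and liver and 0.211 for fat and liver. The letter of the code, whose meaning is not given in the sources used here, was a random block for the brains in another (0.523). Promoters were taken from RefSeq (GRCm38.p6), and plots were made in Python 3.11.15 (matplotlib 3.10.9). The procedure was tested on simulated data. Alternatives were the authors' values, other normalization, filter and weights, and each animal left out in turn.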

Additional observations from a re-analysis of the deposited data

Results flagged for a closer look

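Among 24 sets of member values in the groups of 6 control and 6 metformin HFD livers and of 6 control and 5 metformin fat samples, 1 held a sample far from the others. *Gap43* was 5.00 in control fat 1T-1, where it was not detected, and 6.64 to 7.56 in the other 5 controls. That array detected 31.5% of its probes, against 40.6% to 43.4% in 4 of the other controls and 29.9% in 1R-4. Chance alone marks about 1 such set in 20.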

How the results depend on the processing

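The member count of 0 called in brain, fat, the liver groups and the brain-minus-liver effect, and of 16 called between brain and liver, was the same under every alternative that kept all animals. Counts over all probes moved. In brain the 1 call became 0 with the authors' log2 values or with detection required on all 6 brains, 3 with the brains normalized alone, 2 with arrays centred on medians, 6 in 1 model of 41 arrays and 7 with array weights. In fat 0 became 2 with the authors' values, 1 without a filter and 1 without 1R-4 and 1T-1. In HFD liver 133 became 234, 0 and 61 with the authors' values, centring and no filter. In RD livers the authors' values and centring gave 1 and 1 in males (4 before) and 4 and 1 in females (0 before). Between fat and liver centring gave 5472 (10494 before). For the effect in brain minus liver 0 became 1 with the replicate block, 2 with the authors' values and 1 with centring, and the block changed no member's call. Centring shifted the median of all probes to 0.52 in fat, -0.43 in RD female liver and 0.46 between brain and liver. Signs turned only for differences not called. In brain *Stmn2* was 0.064, 0.013 and 0.041 with the authors' values, brains alone and centring, *Sox11* -0.017, -0.0061 and -0.024 with the authors' values, centring and array weights, and with array weights *Mapt* was -0.17 and *Gap43* 0.12. In fat *Sox11* was 0.52 with centring and *Gap43* -0.010 without 1R-4 and 1T-1. *Stmn2* was -0.10 in RD male liver and 0.14 for the brain-minus-liver effect with centring. The cause of these shifts was not tested. Leaving out 1 animal gave 1 to 2 calls in brain, with *Stmn2* at -0.082 to 0.051, *Mapt* at -0.11 to 0.11, *Gap43* at -0.28 to 0.0085, *Sox11* at -0.10 to 0.10 and *Neurod1* at -0.71 to -0.28, and 0 to 1 in fat, with *Sox11* at -0.10 to 0.040. It gave 31 to 415 calls in HFD liver (without 3R-2 and 10K-2), with *Stmn2* at -0.16 to 0.018, 0 to 47 in RD male liver (47 without 3E, 22 without 6F), with *Dcx* at 0.36 to 0.76 and *Stmn2* at -0.81 to 1.05, and 0 to 12 in RD female liver. For the effect in brain minus liver it gave 0 to 37 calls (37 without 3E), with *Dcx* at -0.90 to -0.50, *Neurod1* at -0.76 to -0.32, *Stmn2* at -1.03 to 0.80, *Mapt* at -1.24 to 0.43, *Gap43* at -0.85 to 0.49 and *Sox11* at -0.49 to 0.014. Between fat and liver *Dcx* was -0.016 to 0.13, and 4 to 6 members were called (5 with the authors' values, 4 with centring). The call of *Mapt* there was lost with the authors' values (adjusted p 0.0504), with centring (0.0827) and without 1R-1 (0.0879) or 1T-2 (0.0953). With 3 brains a group, the median 95% interval over all probes was 0.33 wide on either side, and differences of dim probes such as *Neurod1* were smaller in size on the authors' scale (-0.13 against -0.51).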
